A study of Mus musculus with 24 samples.

Results

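Pancreatic stellate cells (PSC) that shared their medium with pancreatic cancer cells for 72 h in standard co-culture were compared with mono-cultured PSC of the same time. The comparison rests on 6 of the 24 sequenced libraries, chosen by their titles, namely 3 of co-cultured PSC and 3 of control PSC, paired by the replicate number they share. All PSC were wild type (WT) and came from the pooled pancreata of several young adult C57BL/6J mice of both sexes per isolation, used within the first and second passages. For co-culture, 100000 PSC were seeded on a membrane with 1 µm pores and, after 24 h for settling, placed above 100000 KPC cells on the floor of the well, in medium with 10% serum. KPC cells are a single line of mouse pancreatic cancer cells, made from a tumour of a genetically engineered mouse that carried p48-Cre and mutant Trp53, so the results speak for that line. Control PSC grew on the same membrane without KPC cells, and only RNA of PSC was sequenced, from 450 ng of total RNA per library. The other libraries of the study hold the same comparison at 24 h and an inverse co-culture, in which KPC cells grew on the underside of the membrane of the PSC. The question of this comparison is which genes of PSC respond to soluble factors of cancer cells that stay at a distance.

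PSC are resident cells of the pancreas that store vitamin A at rest. On activation they become fibroblasts that make collagen and contract, and in pancreatic cancer they give rise to some of the cancer-associated fibroblasts (CAF), which are sorted into inflammatory (iCAF), myofibroblastic (myCAF) and antigen-presenting (apCAF) kinds. Cancer cells reach them through secreted growth factors and cytokines, and the fibroblasts answer with matrix, proteases, chemokines and growth factors of their own.

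Values are FPKM, in which the fragments counted for a gene are divided by its length and by the library's total. The 6 libraries held 17590918 to 22341813 counted fragments, and 12596 to 13132 genes had an FPKM above 1. Fibroblast markers were abundant in every library, with Col1a1 at 9096, 9856 and 7297 FPKM in the 3 co-cultures and 8471, 5754 and 6571 in their controls, although Gfap, a marker of PSC at rest, stayed below 0.12 FPKM. The study reports its PSC as positive for GFAP by antibody staining, which measures protein rather than RNA. The 10 epithelial markers, which KPC cells would bring along, summed to 2.01 to 4.77 FPKM, and Epcam, Esrp1 and Grhl2 were at 0 in all 6. After removing the mean of each group, libraries of the same number were correlated over genes, at 0.602, 0.480 and 0.478. Control replicate 1 stood apart, at 70.6 on the first principal component (56.2% of the variance) where the other 5 libraries lay between -41.6 and 28.9. Its 20 contractile genes summed to 20138 FPKM, against 3760 and 5534 in control replicates 2 and 3 and 5289 to 7246 in co-culture.

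Ccl6 rose and was the only gene past the limit when the 3 pairs were compared on their own. This was limma's moderated test on log2(FPKM + 0.5) with the pair as a block, at a Benjamini-Hochberg adjusted p under 0.05 over 12863 genes, of which 0.00777% were called. At an unadjusted p under 0.05 there were 446 higher (3.47%) and 942 lower (7.32%) genes. With so few libraries the spread of a gene is poorly known, so the same 72 h contrast was also taken from a fit over the 12 libraries of the standard model, in which the 24 h pairs contribute to the estimate of the spread but not to the difference. There 118 of 13694 genes (0.862%) passed, 53 of them higher (0.387%) and 65 lower (0.475%) in co-culture, and 2301 had an unadjusted p under 0.05. Genes said to rise or fall below passed this second test, and all 118 differed the same way in all 3 pairs. Without replicate 2 or without replicate 3 no gene passed in it (1402 and 1259 genes then had an unadjusted p under 0.05), and without replicate 1, the pair of the outlying control, 419 did, among them 107 of the 118. The 11 others include Gpr35, Mgarp, Mmp12 and Cd38, and those still tested had adjusted p-values of 0.0503 to 0.0567.

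FPKM depends on the sum of each library, and the median log2 difference of all genes was -0.09. Median-ratio scaling, which takes that shift away, turned the split of calls from 44.9% higher to 63.0% higher of 135, and quantile normalization to 60.3% higher of 146. Of all genes tested in the pairs, 1286 (10%) were higher and 3343 (26%) lower in all 3, and 432 (3.36%) were higher and 1258 (9.78%) lower with no overlap of the groups. The counts of the gene lists below are to be read against these shares. In bulk RNA, fewer cells of a type and less RNA per cell cannot be told apart.

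**Figure D1:**
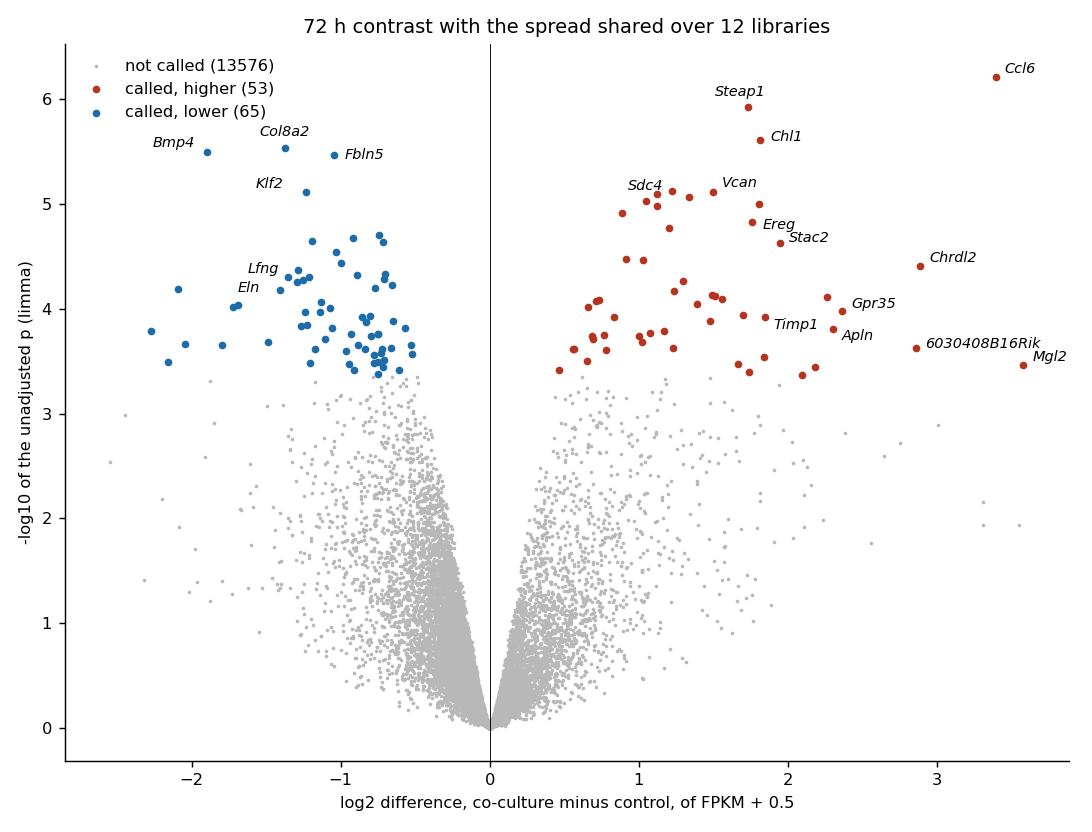
Each point is a gene, with the log2 difference between co-cultured and control PSC at 72 h on the x axis and -log10 of the unadjusted limma p, with the spread shared over 12 libraries, on the y axis. Red points are the 53 genes called higher and blue points the 65 called lower, grey points the others. Mgl2 lies farthest to the right of the called genes, at 3.58, and Ccl6 has the smallest p.

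Ccl6, a CC chemokine made by myeloid cells, lies on chromosome 11 from 83587882 to 83593087 of GRCm38. It measured 13.9, 192 and 24.1 FPKM in co-culture replicates 1, 2 and 3 and 0.859, 16.2 and 2.09 in the controls of the same number. Each co-culture lay far above its own control, though control replicate 2 exceeded co-culture replicate 1, so the groups overlap while the pairs do not. The log2 difference was 3.39 with a standard error of 0.14 in the paired fit (adjusted p = 0.0144 from limma), and the 3 pairs gave 3.41, 3.53 and 3.25. Leaving out replicate 2 or 3 left the difference at 3.33 or 3.47 and took limma's adjusted p above the limit, to 0.124 and 0.418 in the paired fit and to 0.101 in the shared one either way. The annotation places E230016K23Rik over the same stretch, a gene with 0.723 to 4.37 FPKM here, and strand was not used in the counting. The promoter of Ccl6, the 250 bases before and 50 after its start in RefSeq (GRCm38.p6, chr11:83593038-83593337, minus strand), is shown because Ccl6 had the smallest p of all genes. Here and below, capitals mark TGGGAA (the core of RBPJ, the factor through which Notch acts), ACGTG (the core of hypoxia elements) or TGANTCA (AP-1) on either strand, which 25.6%, 19.6% and 7.81% of all 32851 promoters of this length hold.
Ccl6: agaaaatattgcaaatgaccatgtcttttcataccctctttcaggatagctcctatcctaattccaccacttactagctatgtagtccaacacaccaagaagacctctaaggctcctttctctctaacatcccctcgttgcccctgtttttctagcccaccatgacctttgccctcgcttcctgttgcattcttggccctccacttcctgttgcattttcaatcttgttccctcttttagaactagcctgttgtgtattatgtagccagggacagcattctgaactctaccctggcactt
None of these letters occur in this window, which says nothing about factors elsewhere.

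Other genes at home in macrophages rose with Ccl6. Mgl2, a lectin receptor, measured 1.72, 30.5 and 5.66 FPKM in co-culture and 0, 0.494 and 0 in control, the latter resting on 10 fragments in 1 library. Pf4, a CXC chemokine of platelets and macrophages, measured 1.75, 36.2 and 7.15 FPKM against 0, 9.02 and 0.701 in control, and the lectin Clec4n 1.18, 12.7 and 2.78 FPKM against 0.0477, 2.55 and 0.0563 in control. Co-culture replicate 2 was the highest library for all of them, and every pair was higher in co-culture. Also called were Fcgr2b, an inhibitory receptor for antibodies (log2 1.48), the chemokine Ccl9 (1.51) and the elastase Mmp12 (1.17). Some of these calls depended on the pseudocount. With 1 in place of 0.5, Mgl2 and Clec4n had adjusted p-values of 0.0679 and 0.0711 from limma, and with 0.1 Pf4 and Fcgr2b had 0.0851 and 0.0828.

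The macrophage markers did not move the same way as these genes. Summed over 13 markers, including Lyz2, Csf1r, Adgre1 and the C1q chains, they reached 92.4, 900.5 and 202 FPKM in co-culture and 44.6, 1548 and 208 in control, higher in co-culture in pair 1 and lower in pair 2. Of the 13 tested in the shared fit, 0 were called by limma (1 higher and 1 lower at an unadjusted p under 0.05), and no marker was at 0 throughout. Mrc1, a marker of alternatively activated macrophages, measured 0.482, 31.5 and 3.33 FPKM in co-culture and 0.168, 9.13 and 0.753 in control, without passing the limit (adjusted p = 0.0897). Set against the marker sum of the same library, Ccl6 came to 15.1, 21.3 and 11.9% in co-culture and 1.93, 1.04 and 1.005% in control, and Mgl2 to 1.86, 3.39 and 2.81% and 0, 0.0319 and 0%. Both ratios, a description added after the values were seen, separate the groups without overlap. Which cells made these transcripts was not tested.

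**Figure D2:**
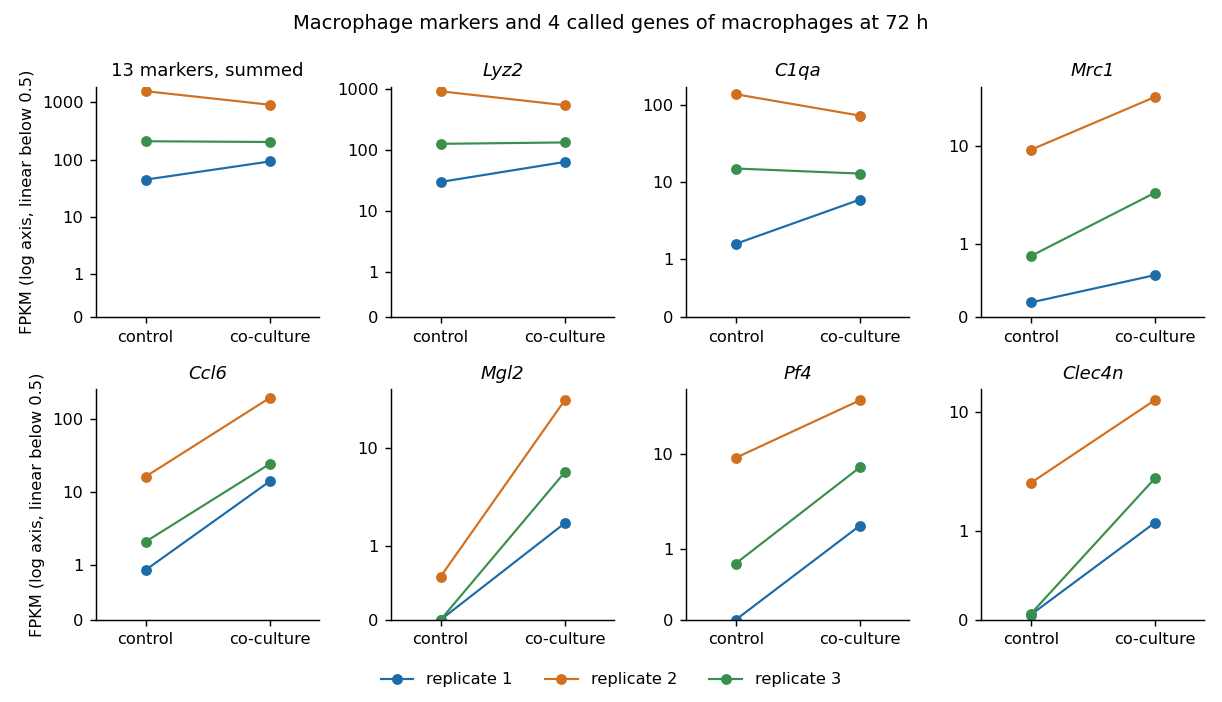
The y axes give FPKM on a log scale that is linear below 0.5, for the sum of 13 macrophage markers, for 3 of them (Lyz2, C1qa and Mrc1) and for 4 called genes (Ccl6, Mgl2, Pf4 and Clec4n), in control and co-cultured PSC at 72 h. Lines join libraries of the same replicate number. The marker sum rises in pair 1 and falls in pair 2, from 1548 to 900.5 FPKM, while the 4 called genes are higher in co-culture in every pair.

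Vcan, Chst11 and Sdc4, a proteoglycan, a sulfotransferase and a syndecan, rose. Vcan, the large chondroitin sulfate proteoglycan that binds hyaluronan, lies on chromosome 13 from 89655312 to 89742509, and measured 82.0, 89.3 and 75.0 FPKM in co-culture and 38.5, 28.7 and 21.5 in control. The groups did not overlap, and the log2 difference was 1.49 ± 0.14 (SE, adjusted p = 0.0102 from limma). Chst11, which sulfates chondroitin chains, measured 17.5, 14.4 and 16.4 FPKM against 6.25, 7.78 and 8.14 in control (log2 1.08 ± 0.16). Sdc4, the syndecan of focal adhesions, measured 290.0, 439 and 351 FPKM against 128, 205 and 191 in control (log2 1.05 ± 0.10). For both, the lowest co-culture lay above the highest control. The promoter of Vcan (chr13:89742463-89742762, minus strand) is shown as that of the proteoglycan the study centred on.
Vcan: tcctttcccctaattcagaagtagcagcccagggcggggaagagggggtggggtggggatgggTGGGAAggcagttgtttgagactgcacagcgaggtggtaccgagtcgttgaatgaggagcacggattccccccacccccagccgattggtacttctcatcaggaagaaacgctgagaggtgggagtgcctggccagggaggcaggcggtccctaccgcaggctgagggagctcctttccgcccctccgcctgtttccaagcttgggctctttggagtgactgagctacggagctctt

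The lists these 3 genes belong to held no other call. Of 12 versican and hyaluronan genes tested, Vcan alone was called, and the list's median was 0.53, with -0.17, 0.62 and 0.57 in pairs 1 to 3. The hyaluronan synthase Has1 measured 1.79, 9.65 and 7.40 FPKM against 0.642, 5.63 and 3.14 in control (adjusted p = 0.0826). Tnfaip6, which links proteins to hyaluronan, measured 5.80, 9.62 and 7.51 FPKM against 1.36, 4.69 and 4.73 in control (adjusted p = 0.0826). Ugdh, which makes the sugar nucleotide for hyaluronan and chondroitin, measured 79.3, 65.8 and 67.3 FPKM against 35.1, 45.7 and 46.7 in control (adjusted p = 0.0711). All 3 were higher in every pair. Cemip, which degrades hyaluronan, measured 82.8, 118 and 155 FPKM against 454, 132 and 249 in control (adjusted p = 0.199), lower in every pair but by little in the second. Of 25 chondroitin and dermatan sulfate enzymes, Chst11 alone passed, and the median of the list, -0.10, was close to that of all genes. Of 9 syndecans and glypicans, only Sdc4 passed, while Sdc1 measured 300.2, 188 and 205 FPKM against 184, 152 and 135 in control (adjusted p = 0.0623).

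Fn1 and Spon2 rose, and Eln and Fbln5, genes of the elastic fibre, fell. Fn1, the fibril-forming adhesive protein and among the most abundant transcripts, measured 9052, 7932 and 4849 FPKM in co-culture and 2947, 3099 and 2966 in control. Controls were within a narrow band and all co-cultures above them, replicate 3 by the least (log2 1.23 ± 0.19, adjusted p = 0.035). Spon2, a secreted matrix protein of the spondin family, rose as well, from 56.9, 90.8 and 65.2 to 194, 186 and 123 FPKM. In the other direction, Eln, the core protein of elastic fibres, measured 49.4, 53.1 and 72.1 FPKM in co-culture and 169, 142 and 148 in control. Fbln5, which assembles elastin, measured 20.6, 17.9 and 31.4 FPKM against 45.5, 38.7 and 59.8 in control. Groups did not overlap for either, and the log2 differences were -1.40 ± 0.18 and -1.05 ± 0.09. The list of 38 glycoproteins and elastic fibre genes thus held 2 genes that rose and 2 that fell, and its median was 0.11. Fmod, a small proteoglycan of collagen fibrils, also fell (-0.57 ± 0.08). Fn1 lost its call under quantile normalization (adjusted p = 0.0860 from limma) and Fmod under median-ratio scaling (0.0629). Ccn5, a matricellular protein, measured 139, 147 and 213 FPKM against 701, 243 and 411 in control (adjusted p = 0.0812). Sparcl1, a relative of osteonectin, measured 92.7, 194 and 174 FPKM against 4.13, 161 and 116 in control, a difference of 4.33, 0.27 and 0.58 in pairs 1 to 3 (adjusted p = 0.255). Ccn5 was lower without overlap, while Sparcl1 was lowest in control replicate 1.

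Fibrillar collagens did not pass the limit. Of 28 collagen genes tested in the shared fit, 1 was called, Col8a2, a short-chain collagen, which fell from 14.6, 23.6 and 32.1 to 5.03, 9.32 and 11.99 FPKM (log2 -1.38 ± 0.11). Col3a1, the most abundant, measured 13975, 20531 and 19200 FPKM in co-culture and 4666, 14136 and 13730 in control. Every pair was higher in co-culture, and pair 1, whose control was low, gave the largest of the log2 differences of 1.58, 0.54 and 0.48 (mean 0.87, adjusted p = 0.151). Col15a1, a collagen near basement membranes, measured 1373, 1189.6 and 1007 FPKM against 343, 1017 and 867 in control (adjusted p = 0.292), again with the lowest value in control replicate 1. Col1a1 differed by 0.34 (adjusted p = 0.38), and quantile normalization turned that difference to -0.14 in the paired fit and -0.054 in the shared one.

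Among proteases and their inhibitors, Timp1, the secreted inhibitor of matrix metalloproteinases, measured 1205, 749.7 and 599 FPKM in co-culture and 180.1, 328 and 197 in control. The lowest co-culture was above the highest control, and the log2 difference was 1.84 ± 0.26 (adjusted p = 0.027). Timp3, which stays bound to the matrix, measured 16.8, 20.97 and 33.7 FPKM against 97.7, 39.3 and 71.9 in control and did not pass (adjusted p = 0.0665). Mmp15, a membrane-anchored metalloproteinase, fell from 5.47, 4.88 and 7.15 to 1.92, 1.45 and 3.50 FPKM. The stromelysin Mmp3 measured 117, 148 and 89.5 FPKM in co-culture and 0.124, 51.5 and 29.5 in control. Control replicate 1 held 5 fragments of it, and the pairs gave 7.55, 1.51 and 1.59 (mean 3.55, adjusted p = 0.173). Its relative Mmp10 measured 4.32, 9.398 and 5.74 FPKM against 0.208, 2.28 and 2.98 in control (adjusted p = 0.0785), and the collagenase Mmp13 1.03, 2.90 and 1.23 FPKM against 0.1005, 0.408 and 0.178 in control (adjusted p = 0.0834). The groups of these metalloproteinases did not overlap, though none of them passed. In all, 2 of 36 genes of this list rose and 1 fell, and the median was 0.26, with 0.10, 0.01 and 0.03 in pairs 1 to 3 and -0.012 without replicate 1. The promoter of Timp1 (chrX:20869916-20870215, plus strand) is shown as that of the most abundant called gene after Fn1.
Timp1: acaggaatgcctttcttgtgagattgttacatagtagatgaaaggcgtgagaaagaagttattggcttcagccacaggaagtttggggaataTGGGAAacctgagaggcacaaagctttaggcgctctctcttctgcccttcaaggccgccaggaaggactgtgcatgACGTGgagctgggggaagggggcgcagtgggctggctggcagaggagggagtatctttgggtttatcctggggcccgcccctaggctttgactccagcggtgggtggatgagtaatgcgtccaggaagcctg
It holds 1 TGGGAA and 1 ACGTG, and Syn1, a gene with 0.848 to 1.76 FPKM here, spans the Timp1 locus in the annotation.

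**Figure D3:**
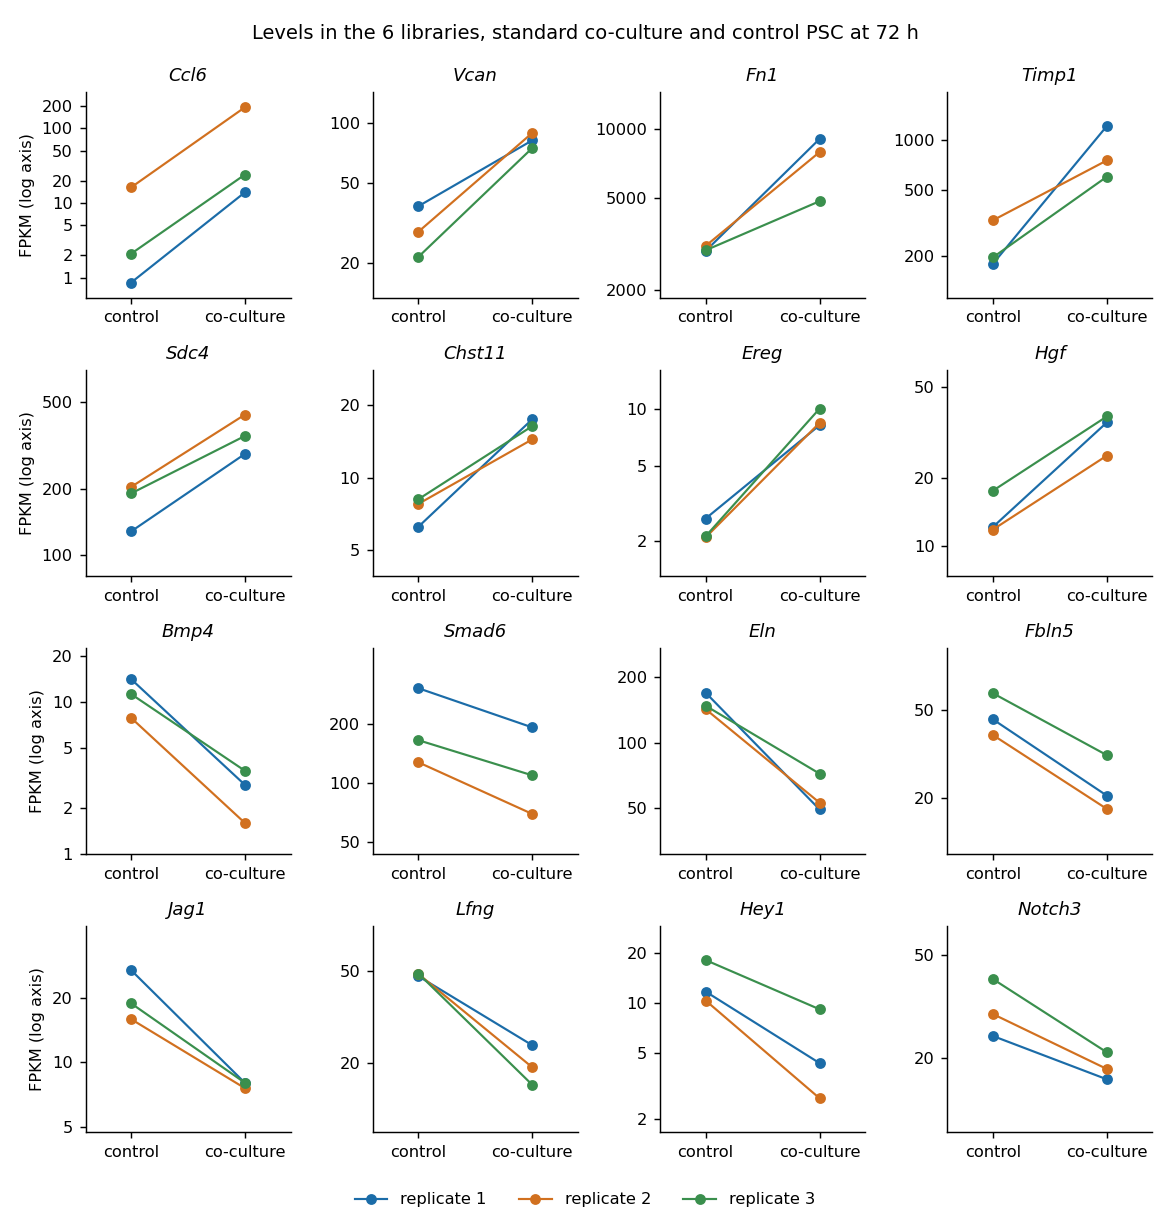
FPKM of 16 genes that passed the test with shared spread, on log axes, in control and co-cultured PSC at 72 h, with lines joining the libraries of each replicate number. Every line of the upper 8 panels rises and every line of the lower 8 falls, and for Ccl6 and Smad6 the ranges of the groups overlap although each pair moves the same way.

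In Notch signalling, 5 genes fell, from ligand to target. In this pathway a ligand on one cell binds a Notch receptor on its neighbour, which is then cleaved, and the freed part enters the nucleus and switches on Hes and Hey genes. Of 12 members tested, 5 fell and 0 rose, where 0.475% of all genes fell. Jag1, a ligand, measured 8.01, 7.57 and 8.02 FPKM in co-culture and 26.8, 15.9 and 18.8 in control. Lfng, which puts sugars on Notch receptors and sets their response to ligands, measured 23.9, 19.2 and 16.1 FPKM against 47.5, 48.5 and 48.7 in control. Neither gene overlapped between the groups, with log2 differences of -1.29 ± 0.16 and -1.29 ± 0.15 and adjusted p-values of 0.0211 and 0.0207 from limma.

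On the receiving side, the receptor Notch3 measured 16.6, 18.2 and 21.1 FPKM in co-culture and 24.4, 29.7 and 40.5 in control. The target Hey1 measured 4.34, 2.66 and 9.16 FPKM against 11.7, 10.4 and 18.2 in control, and the coactivator Maml2 9.54, 9.13 and 11.6 FPKM against 15.3, 14.98 and 21.4 in control. None of the 3 overlapped between groups, and the log2 differences were -0.72, -1.36 and -0.73. Notch3 lost its call under median-ratio scaling and quantile normalization (adjusted p = 0.0668 and 0.0726 from limma), which leaves 4 that fell. Hes1, another target, measured 173, 218 and 219 FPKM against 143, 289.7 and 305 in control and was lower only in pairs 2 and 3. Notch1 and Notch2 differed by 0.22 and -0.07, and Notch4 was higher in every pair (0.92, adjusted p = 0.239). The median of the 12 was -0.35, but 0.06, -0.66 and -0.64 by pair, so the list as a whole was not lower in pair 1. Notch3 is also one of the pericyte markers, of which Rgs5, Kcnj8 and Abcc9 are the others, and the 4 summed to 17.7, 22.6 and 26.0 FPKM in co-culture and 27.2, 33.3 and 43.3 in control, most of it Notch3 itself. The promoters of the ligand and of the enzyme (chr2:137116471-137116770, minus strand, and chr5:140607091-140607390, plus strand) are shown because both genes fell.
Jag1: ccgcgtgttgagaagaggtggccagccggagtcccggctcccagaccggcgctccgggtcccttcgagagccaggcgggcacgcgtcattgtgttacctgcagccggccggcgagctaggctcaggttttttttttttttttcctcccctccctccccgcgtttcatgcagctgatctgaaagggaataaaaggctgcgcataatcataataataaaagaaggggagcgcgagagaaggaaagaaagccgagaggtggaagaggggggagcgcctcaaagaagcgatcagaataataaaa
Lfng: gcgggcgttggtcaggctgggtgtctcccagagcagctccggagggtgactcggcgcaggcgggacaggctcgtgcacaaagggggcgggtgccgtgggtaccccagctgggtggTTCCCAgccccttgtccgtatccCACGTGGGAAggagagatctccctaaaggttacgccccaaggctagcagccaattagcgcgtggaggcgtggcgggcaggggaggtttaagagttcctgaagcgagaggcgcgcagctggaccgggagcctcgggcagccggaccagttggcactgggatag
The Lfng window holds 2 matches of TGGGAA, the second overlapping a CACGTG that reads as ACGTG on both strands, and the Jag1 window holds none of the letters searched. Among called genes with a promoter in the table, TGGGAA occurred in 15 of 46 that fell (32.6%) and 10 of 40 that rose (25%), where 28.3% of all 27025 genes hold it.

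BMP signalling, in which ligands of the TGF-beta family act through SMAD proteins and induce Id genes, held 4 calls. The ligand Bmp4 on chromosome 14 from 46383520 to 46390669 measured 2.83, 1.59 and 3.51 FPKM in co-culture and 14.1, 7.85 and 11.3 in control. The groups did not overlap, with a log2 difference of -1.90 ± 0.16 and an adjusted p of 0.00781. Chrdl2, a secreted antagonist related to chordin, measured 4.24, 6.14 and 3.30 FPKM against 0.0302, 0.368 and 0.143 in control, the controls holding 1 to 10 fragments and the co-cultures 86 to 169. The inhibitory Smad6 fell from 304, 127 and 165 to 192, 69.5 and 109 FPKM, and the target Id4 from 87.0, 74.8 and 96.9 to 56.0, 33.5 and 66.1. Smad6 was lower in each pair while its ranges overlap, since replicate 1 is high in both groups. Id1, a classical target, measured 145, 109.7 and 185 FPKM against 157, 218 and 217 in control without passing (adjusted p = 0.233). The antagonist Bmper measured 105, 133 and 126 FPKM against 53.8, 104 and 70.2 in control, higher in every pair (adjusted p = 0.0602). Of 28 BMP genes tested, 3 fell and 1 rose, and the median was -0.10, beside -0.09 for all genes, and -0.35 without replicate 1. The promoter of Bmp4 (chr14:46390620-46390919, minus strand) is shown for the ligand that fell most.
Bmp4: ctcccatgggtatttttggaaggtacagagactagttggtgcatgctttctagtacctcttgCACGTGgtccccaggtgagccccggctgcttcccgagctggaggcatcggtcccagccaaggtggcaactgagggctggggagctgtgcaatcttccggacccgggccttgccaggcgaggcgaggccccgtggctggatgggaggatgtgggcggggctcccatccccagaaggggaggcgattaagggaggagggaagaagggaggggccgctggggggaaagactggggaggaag
Its 2 matches of ACGTG are the 2 strands of 1 CACGTG. TGF-beta and activin genes held 0 calls among 24 (4 higher and 4 lower at an unadjusted p under 0.05). Smad3, which carries the signal of TGF-beta, measured 94.2, 79.9 and 85.8 FPKM against 25.3, 64.5 and 59.9 in control (adjusted p = 0.213). The ligand Tgfb2 measured 5.05, 4.21 and 5.85 FPKM against 42.1, 7.01 and 7.21 in control (adjusted p = 0.229). Control replicate 1 was the lowest library for Smad3 and far the highest for Tgfb2. Wnt genes held 0 calls among 21 (2 higher and 4 lower at an unadjusted p under 0.05). The ligand Wnt9a measured 1.00, 1.73 and 2.72 FPKM against 2.41, 6.73 and 5.403 in control, just short of the limit (adjusted p = 0.0539), and Frzb, a secreted antagonist, 37.1, 28.8 and 22.3 FPKM against 10.8, 14.5 and 13.2 in control (adjusted p = 0.0602). Nkd1, an inhibitor that Wnt induces, measured 21.7, 20.52 and 29.4 FPKM against 44.1, 35.2 and 39.6 in control (adjusted p = 0.0602). Frzb was higher and Nkd1 lower without overlap, and Wnt9a was lower in every pair.

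Ereg and Hgf, growth factors that act on epithelia, rose. Ereg, a ligand of the EGF receptor, measured 8.19, 8.43 and 10.0 FPKM in co-culture and 2.62, 2.09 and 2.11 in control. Hgf, the ligand of the receptor MET, measured 35.01, 25.003 and 37.2 FPKM against 12.1, 11.8 and 17.5 in control. The groups did not overlap for either, with log2 differences of 1.76 ± 0.18 and 1.202 ± 0.13. In the list of EGF receptor and ERK feedback genes, Ereg alone of 23 was called, while 12 were higher and 2 lower in all 3 pairs. The AP-1 subunit Fosl1 measured 15.2, 17.2 and 10.9 FPKM against 9.81, 5.11 and 4.25 in control and just missed the limit (adjusted p = 0.0512). The feedback inhibitor Errfi1 measured 154, 349.6 and 259 FPKM against 33.9, 184 and 151 in control (adjusted p = 0.0819). The median of the list was 0.37, and all 3 pairs were above 0 (0.47, 0.18 and 0.27). Of 36 HGF, FGF, IGF and related genes, 1 rose (Hgf) and 1 fell, and Fgf2, a growth factor of mesenchyme and vessels, measured 546, 353 and 475 FPKM against 163, 240.1 and 298 in control (adjusted p = 0.115). Igfbp2, a carrier of insulin-like growth factors, measured 179, 23.01 and 48.5 FPKM against 1248, 32.3 and 83.8 in control (adjusted p = 0.175), highest in replicate 1 of both groups and lower in co-culture in every pair.

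Among cytokines of inflammatory fibroblasts, Il6 rose. Il6, which activates STAT3 in its target cells, measured 46.8, 343 and 272 FPKM in co-culture and 14.9, 151 and 127 in control. Both libraries of replicate 1 were far lower than the others, so the groups overlap, while the pairs gave log2 differences of 1.62, 1.18 and 1.09 (mean 1.30 ± 0.16, adjusted p = 0.0211). Lif, a cytokine of the same family, measured 8.59, 38.1 and 35.4 FPKM against 4.69, 26.2 and 25.1 in control and did not pass (adjusted p = 0.1). Among 13 tested members of the IL6 list, Il6 alone was called, and 5 were higher and 1 lower in all 3 pairs of the 11 tested there. Il1rn, the antagonist of the IL1 receptor, measured 7.25, 9.98 and 5.96 FPKM against 1.05, 6.06 and 1.42 in control (adjusted p = 0.0962), and Kitl, the ligand of KIT, 41.5, 34.7 and 39.6 FPKM against 11.9, 20.7 and 26.8 in control (adjusted p = 0.102). Both were higher in every pair. The JAK-STAT3 and NF-kB feedback genes held 0 calls among 34 (12 higher and 2 lower at an unadjusted p under 0.05), with 14 higher and 4 lower in all 3 pairs of 33. Lcn2, an iron-trapping protein induced by NF-kB, measured 5.19, 23.1 and 31.8 FPKM against 0, 12.3 and 9.32 in control (adjusted p = 0.101). Vcam1, an adhesion molecule for leukocytes, measured 38.8, 60.4 and 92.2 FPKM against 52.5, 124 and 140.5 in control, lower in every pair (adjusted p = 0.0539).

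Of the chemokines, 4 rose and none fell. Cxcl14, which attracts myeloid cells, measured 5.38, 23.9 and 10.9 FPKM in co-culture and 1.196, 6.72 and 2.63 in control, higher in every pair with overlapping groups (log2 1.81 ± 0.18). Ccl9, already named, measured 8.37, 84.5 and 50.5 FPKM against 2.79, 39.4 and 12.2 in control. Ccl2, the main attractant of monocytes, measured 59.7, 272 and 213 FPKM against 21.8, 197 and 88.3 in control (adjusted p = 0.0745), and Cxcl5, which attracts neutrophils, 8.59, 67.1 and 57.4 FPKM against 0.729, 38.7 and 12.5 in control (adjusted p = 0.0551). They were higher in every pair without passing. Of 13 CC chemokines, 2 rose (Ccl6 and Ccl9) and 6 were higher in all 3 pairs, and of 11 CXC chemokines 2 rose (Cxcl14 and Pf4). Zc3h12a, an RNase that degrades Il6 mRNA, rose from 12.9, 29.5 and 26.3 to 31.5, 67.7 and 50.2 FPKM (adjusted p = 0.0102).

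Glycolysis and hypoxia genes were more often higher than lower. Of 39 tested, 24 were higher and 2 lower in all 3 pairs, where 10% and 26% of all genes were, and the list's median was 0.58, with 0.39, 0.93 and 0.34 by pair. Called were 2 of them, both higher. Slc16a1, a carrier of lactate, measured 8.14, 17.2 and 17.1 FPKM in co-culture and 3.36, 10.0 and 7.79 in control, higher in every pair with overlapping groups. Mgarp, a mitochondrial protein induced by hypoxia, measured 14.7, 15.6 and 4.89 FPKM against 3.60, 2.95 and 2.22 in control. Co-culture replicate 3 was well below the other co-cultures but above every control, and without replicate 1 the adjusted p of Mgarp was 0.0527. Ndufa4l2, a mitochondrial target of HIF1, showed the same order more strongly, with 65.9, 102 and 10.3 FPKM in co-culture and 9.85, 2.55 and 3.995 in control (log2 3.01, adjusted p = 0.0785). The kinase Pdk1, which keeps pyruvate from mitochondria, measured 46.3, 57.1 and 19.4 FPKM against 19.3, 10.8 and 12.4 in control (adjusted p = 0.0826), and the lactate exporter Slc16a3 158, 144 and 38.5 FPKM against 83.3, 19.1 and 17.1 in control (adjusted p = 0.0945). For Mgarp, Ndufa4l2, Pdk1 and Slc16a3, pair 3 gave a smaller difference than pair 2, and for Slc16a1 a larger one. Slc2a3, a glucose carrier that the study also lists, measured 3.36, 4.73 and 2.79 FPKM against 0.828, 1.51 and 1.41 in control, without overlap (adjusted p = 0.0655).

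Retinoid genes changed in both directions. Of 15 tested genes of vitamin A handling and stellate cells, 1 rose and 2 fell, where 0.387% and 0.475% of all genes did. Rdh10, which makes retinal from retinol, rose from 8.51, 15.6 and 16.3 to 21.2, 37.4 and 37.0 FPKM (log2 1.22 ± 0.12). Of the enzymes that turn retinal into retinoic acid, Aldh1a1 fell from 70.9, 111 and 149 to 45.9, 40.5 and 68.7 FPKM and Aldh1a3 from 209, 30.5 and 59.8 to 61.0, 14.3 and 36.8. The third, Aldh1a2, was the most abundant, at 315, 609.9 and 522 FPKM against 130.4, 542 and 509.9 in control, and did not pass (adjusted p = 0.389). Aldh1a3 was high in both libraries of replicate 1, so its groups overlap, and it lost its call under quantile normalization (adjusted p = 0.0549 from limma). Rarb, a receptor of retinoic acid that it also induces, measured 6.03, 7.36 and 5.93 FPKM against 1.96, 2.97 and 3.94 in control, without overlap (adjusted p = 0.1). Of 39 lipid storage genes, Acsl4, which activates arachidonic acid, alone was called and rose from 13.2, 17.8 and 17.4 to 31.9, 34.4 and 40.5 FPKM. Cdo1, which breaks down cysteine and is high in fat cells, measured 6.72, 10.9 and 39.8 FPKM against 23.8, 42.6 and 50.8 in control, lower in every pair (adjusted p = 0.0941). Ugcg, which makes glucosylceramide, was the 1 call among the 28 genes listed under sterol synthesis and uptake (log2 0.83 ± 0.12). The 6 adipocyte markers summed to 31.5, 106 and 278 FPKM in co-culture and 14.6, 379.6 and 349 in control, lower in pairs 2 and 3 and higher in pair 1. Their part in the lipid genes was not tested.

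Contractile genes depended on the pair. Acta2, smooth muscle actin, measured 1194, 771 and 899 FPKM in co-culture and 4537, 476 and 895 in control. Against the outlying control replicate 1 it was lower, against control replicate 2 higher and against control replicate 3 level, with log2 differences of -1.93, 0.70 and 0.01. Cnn1 and Myh11, calponin and the smooth muscle myosin, showed the same, at -2.12, 0.81 and 0.09 and -2.63, 0.95 and -0.09. Over the contractile list, the medians of 19 genes were -1.55, 0.44 and 0.01 by pair, and -1.04, 0.43 and 0.04 for the 19 tested myCAF genes. Of the contractile list, 1 gene fell, the integrin subunit Itga8, from 11.6, 4.74 and 12.4 to 1.80, 1.58 and 4.59 FPKM. Among single genes outside the list, chosen after their values were seen, the LIM protein Fhl2 (log2 -0.91), the formin Fhod1 (-0.86) and the myosin Myo10 (-0.74) fell.

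Interferon-stimulated genes held 0 calls among 35 (0 higher and 14 lower at an unadjusted p under 0.05). Of 32 tested in the pairs, 14 were lower and 0 higher in all 3, where 26% and 10% of all genes were, and the median was -0.50, with -0.02, -0.71 and -0.68 by pair. Ifit1, which binds foreign RNA, measured 0.755, 1.48 and 2.87 FPKM in co-culture and 1.33, 3.69 and 12.5 in control (adjusted p = 0.134). Usp18, which damps interferon signalling, measured 2.44, 3.77 and 6.74 FPKM against 4.45, 7.64 and 15.4 in control (adjusted p = 0.063). For both, replicate 3 was the highest library of either group and every pair was lower in co-culture.

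Proliferation genes held 0 calls among 43 (2 higher and 4 lower at an unadjusted p under 0.05). Mki67, a marker of dividing cells, measured 13.9, 11.3 and 5.64 FPKM in co-culture and 23.9, 4.27 and 3.84 in control, lower in pair 1 and higher in pairs 2 and 3. Cdkn1a, which stops the cell cycle, measured 225, 183 and 214 FPKM against 278, 228 and 262 in control, lower without overlap (adjusted p = 0.168).

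The remaining lists held few calls by limma. Genes of the stress response of the endoplasmic reticulum held 0 among 33 (6 higher and 0 lower at an unadjusted p under 0.05), and its regulator Xbp1 measured 251, 269.6 and 248 FPKM against 112, 227 and 184 in control (adjusted p = 0.138). NRF2 targets and metallothioneins held 0 among 20 (1 higher and 4 lower at an unadjusted p under 0.05), with the metallothionein Mt1 at 67.8, 172 and 83.0 FPKM against 27.5, 99.8 and 61.9 in control (adjusted p = 0.063). Both Xbp1 and Mt1 were higher in every pair. Prostaglandin genes held 0 among 16 (2 higher and 0 lower at an unadjusted p under 0.05), mitochondrial mRNAs 0 among 12 (0 higher and 2 lower at an unadjusted p under 0.05) and myCAF genes 0 among 19 (1 higher and 2 lower at an unadjusted p under 0.05). The apCAF genes held 0 among 15 (3 higher and 1 lower at an unadjusted p under 0.05), and H2-Ab1, a chain of class II major histocompatibility molecules, measured 7.81, 3.84 and 1.52 FPKM against 1.54, 1.11 and 0.337 in control, higher in every pair (adjusted p = 0.065). Of 24 iCAF genes Il6 alone was called, and the list's median of 0.59 was 1.34, 0.19 and 0.21 by pair, pair 1 being far the highest. Klf2, a transcription factor induced by flow and statins, was the 1 call among 27 immediate early and heat shock genes and fell from 50.04, 73.1 and 72.7 to 19.8, 29.4 and 34.4 FPKM (log2 -1.23 ± 0.12). In complement and coagulation, Thbd, the receptor of thrombin, rose (0.66 ± 0.09) and Gas6, the ligand of the TAM receptors, fell from 550.2, 553 and 529 to 239.7, 248 and 314 FPKM. Ptx3, a pentraxin of innate immunity, measured 582, 1063 and 906 FPKM against 372, 377 and 414 in control, without overlap (adjusted p = 0.0602). Itga8 was the only call among 19 integrins, and Itga3, a receptor of laminin, measured 3.98, 5.23 and 6.68 FPKM against 11.3, 9.29 and 10.2 in control (adjusted p = 0.0761). Summed for each cell type on its own, markers of endothelial, mesothelial, acinar and Schwann cells reached at most 45.0 FPKM in any library. The markers tested, like those of adipocytes, were not called.

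**Figure D4:**
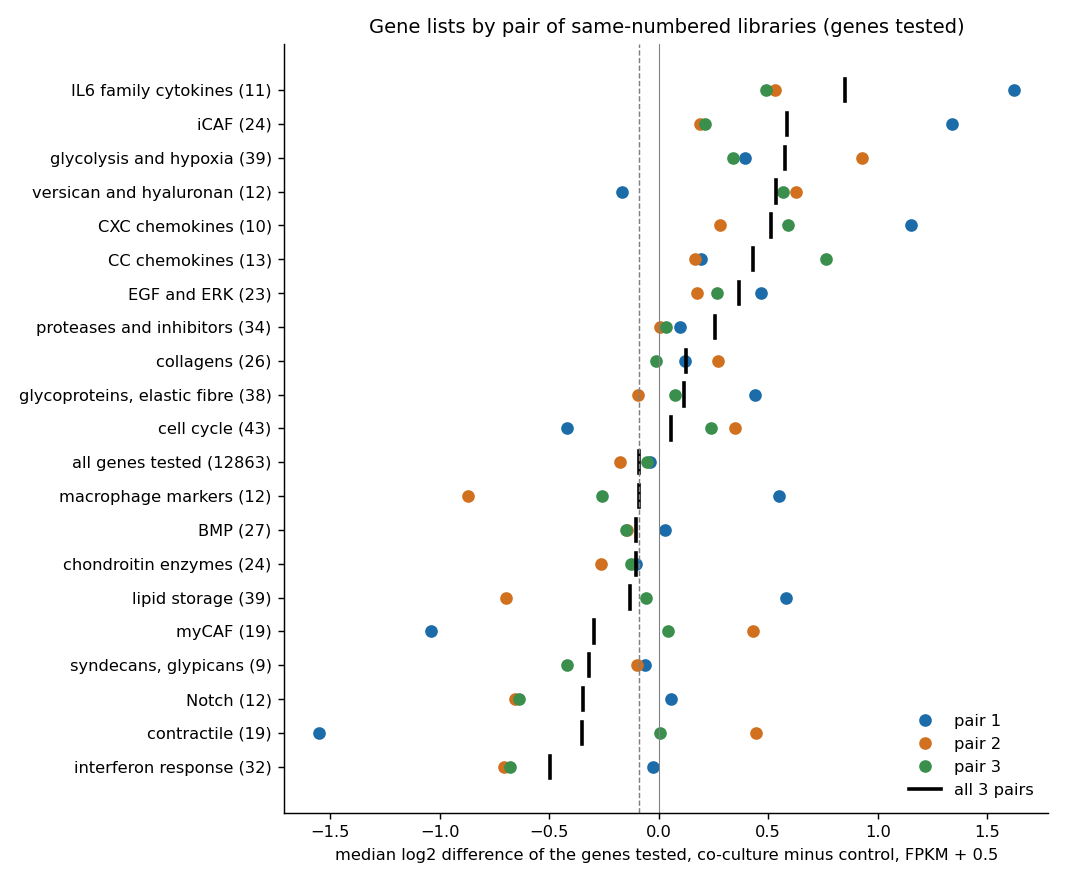
For 20 gene lists and for all genes, the x axis gives the median log2 difference of the genes tested (their number in brackets), co-culture minus control. Coloured points are the 3 pairs and the black bar the median of the mean differences, which need not lie among the points. The dashed line marks the median of all genes, -0.09, and contractile, myCAF, IL6 family and iCAF genes show pair 1 far from the other pairs.

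The study lists 47 genes as shared between standard co-culture at 72 h and its other comparisons, which it chose on these samples, so their direction is not independent evidence. Of 45 tested in the shared fit, 19 rose and 8 fell, and all 44 tested in the pairs differed the same way in all 3, 34 higher and 10 lower, without overlap of the groups. Those that rose include Stac2, an adaptor of calcium channels (log2 1.94 ± 0.21), Gpr35, a receptor of metabolites (2.36 ± 0.32), and Mcfd2, which carries clotting factors out of the endoplasmic reticulum (0.91 ± 0.11). Cdr2l rose from 32.1, 31.7 and 30.9 to 65.4, 59.6 and 52.2 FPKM, with near level controls. The uncharacterized 6030408B16Rik measured 22.4, 22.4 and 12.9 FPKM in co-culture and 0.519, 5.66 and 2.42 in control. Those that fell include Cys1, a protein of primary cilia, with 1.74, 0.508 and 2.46 FPKM in co-culture and 6.63, 6.69 and 9.66 in control, and Rtn1, a reticulon (-1.07 ± 0.15). Rasa4, which turns off Ras in response to calcium, fell from 23.3, 13.7 and 20.7 to 7.01, 7.95 and 8.32 FPKM. Tnfsf15, a cytokine of the TNF family on the same list, measured 5.23, 2.44 and 2.00 FPKM against 0.321, 0.277 and 0.601 in control and did not pass (adjusted p = 0.0819).

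By size alone, the largest differences that kept their direction in all 3 pairs mixed abundant and barely detected genes. Upwards, Mgl2, Mmp3, Ccl6, A2m and Spp1 led. Spp1, the secreted phosphoprotein osteopontin, measured 1526, 997 and 348 FPKM in co-culture and 11.3, 523 and 88.0 in control, and the protease inhibitor A2m 91.3, 263 and 76.2 FPKM against 0.317, 94.7 and 23.9 in control. Both were lowest in control replicate 1, the groups of both overlap, and neither passed (adjusted p = 0.173 and 0.142). Xpnpep2, an aminopeptidase, measured 18.3, 20.3 and 11.6 FPKM against 0.515, 6.27 and 4.34 in control, without overlap (adjusted p = 0.0826). Downwards, 10 of the 15 largest differences belong to short noncoding genes or a pseudogene with at most 39 fragments in any library. Gm24430 and Mir7013 had no fragment in any co-culture and 2 to 5 in each control, and 9 of the 10 overlap another annotated gene. Of the 118 calls, 112 are protein-coding, and 4 are short noncoding genes. Of these, Gm24430, Gm22933 and Mir7061 rest on 5 fragments or fewer per library and Mir23a on 5 to 16, so no fold is given for them. Insc, an adaptor of spindle orientation, measured 0.102, 1.15 and 0.441 FPKM in co-culture and 11.97, 2.17 and 5.07 in control, without overlap of the groups (adjusted p = 0.1). Prex2, which activates Rac, measured 0.902, 2.41 and 3.95 FPKM against 9.72, 5.15 and 15.1 in control, just short of the limit (adjusted p = 0.0532). Lrrc17, a secreted leucine-rich repeat protein, fell from 15.9, 8.22 and 10.3 to 6.42, 1.26 and 3.02 FPKM, without overlap.

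The effect at 72 h was set against that of the same model at 24 h, measured in other libraries. Those 24 h pairs had contributed to the spread by which the genes below were called, though not to their difference. The shares below are therefore not independent of that choice. Of the 53 genes that rose at 72 h, 51 had a log2 difference above 0 at 24 h (96.2%, against 70.8% of all tested genes that were higher at 72 h), and 50 had a smaller one. Of the 65 that fell, 61 were below 0 at 24 h (93.8%, against 64.9%), and 61 had a smaller decrease. Among the called genes, 19 that rose and 8 that fell are on the study's list of genes shared with other comparisons. Medians went from 0.75 at 24 h to 1.30 at 72 h for genes that rose, and from -0.58 to -0.94 for those that fell. Since the genes were chosen for their difference at 72 h, a smaller one at 24 h is not evidence of growth with time. Tested as such, 0 of 13694 genes (0%) differed between 72 h and 24 h by limma over 12 libraries, with 424 at an unadjusted p under 0.05 and adjusted p-values of 1. Vcan at 24 h measured 76.1, 93.1 and 107 FPKM in co-culture and 24.3, 34.9 and 32.4 in control (log2 1.58). Ccl6 differed by 1.68 at 24 h, Bmp4 by -1.004, and Mgarp by -0.20, where it measured 4.52, 2.52 and 2.83 FPKM in co-culture and 5.79, 3.03 and 2.96 in control. The smallest unadjusted p of this test belonged to Mir6386, Mgarp, Gm24430, Usp18 and Ccl6.

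Inverse co-culture at 72 h, with its own controls and 120 ng of RNA input, gave most of these genes the same direction. Of the 53 that rose, 49 had a log2 difference above 0 there (92.5%, against 57.9% of all genes higher in standard co-culture), and of the 65 that fell, 63 were below 0 (96.9%, against 81.6%). The medians, 1.15 and -0.94 in the inverse model, stand beside 1.30 and -0.94 in the standard model. Ccl6 differed by 3.63 in the inverse model, Vcan by 1.15, Bmp4 by -1.50 and Hey1 by -2.24. The 4 that rose and had a difference below 0 there were Ccl9 (-0.90 against 1.51), the adhesion molecule Chl1 (-0.52 against 1.81), the pseudogene Gm18787 and the calcium channel subunit Cacna1d. The other way they were the short genes Gm24430 and Gm22933. As a test of the difference, 0 of 13775 genes (0%) passed by limma over the 12 libraries of 72 h, with a smallest adjusted p of 0.527 and 848 genes at an unadjusted p under 0.05. The smallest p belonged to Gm25549, Gpam, Hipk2, Pold4 and Stxbp6, which were not called in standard co-culture. By the methods, inverse PSC also shared the culture with KPC cells from seeding, 24 h before time was counted. Their exposure was therefore longer than 72 h. Model, RNA input and length of exposure cannot be told apart here, and a test that calls no gene does not show that the models act alike.

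**Figure D5:**
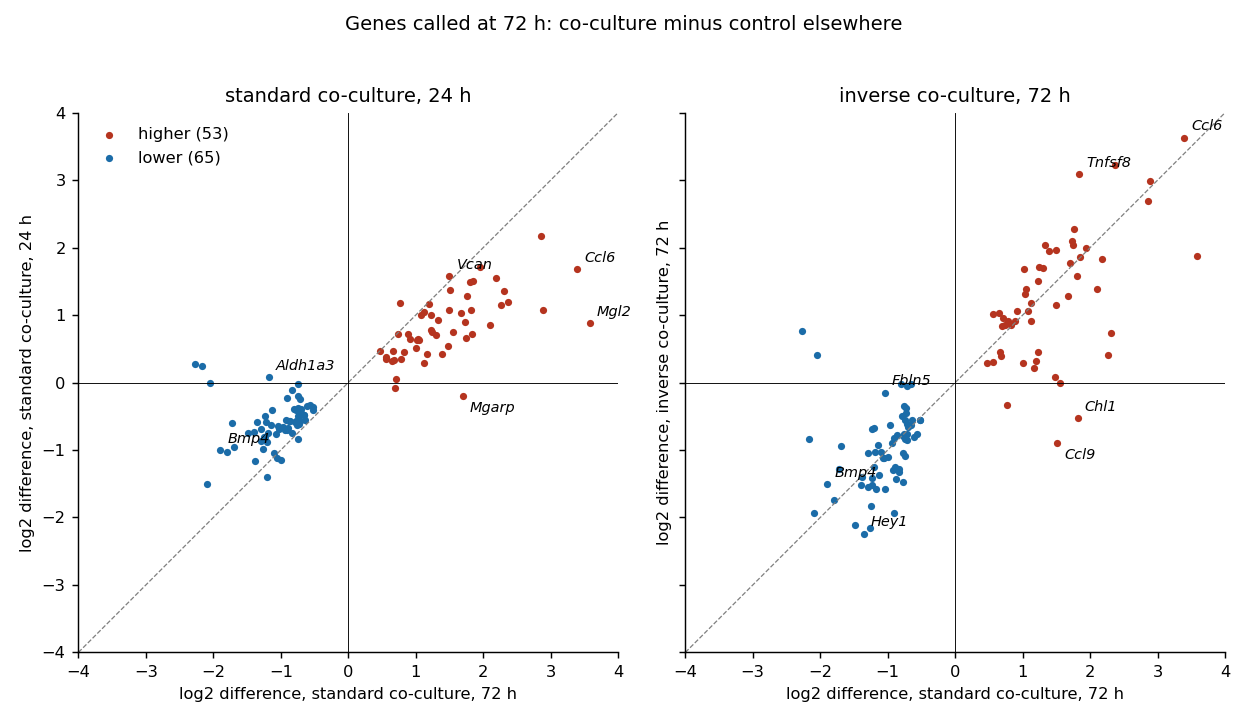
Each point is one of the 118 genes called in standard co-culture at 72 h, with its log2 difference there on the x axis of both panels. The y axes give its log2 difference in standard co-culture at 24 h on the left and in inverse co-culture at 72 h on the right, and the dashed line marks equal differences. At 24 h nearly all points lie between 0 and that line, and in the inverse model they lie on both sides of it.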

How the data were processed

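RNA of PSC was sequenced in 24 libraries, of which 6 were compared here. According to the methods, mRNA was caught on poly-T beads, read as paired ends and aligned with HISAT2 2.0.5 to GRCm38.p6. The authors counted fragments with featureCounts 1.5.0-p3 in its default setting, which disregards strand, and deposited FPKM values per gene. The annotation release is not given in the sources used here, and DESeq2 1.20.0, which the authors used on their counts, was not run. FPKM were not rescaled.

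Low FPKM values were whole multiples of 1 fragment (95.6 to 96.5% of them to within 0.02 fragments), which gave 17590918 to 22341813 counted fragments per library. Of 53801 genes, 53706 matched an annotation (GENCODE) used for names, lengths and overlaps. The test took genes that exceeded 1 FPKM in 3 or more libraries, and used limma 3.58.1 (R 4.3.3) on log2(FPKM + 0.5), with a trend in the spread and Benjamini-Hochberg adjustment at 0.05. Fold changes are on that scale, which understates the change of low genes. The replicate number was a block in every fit, over 6 libraries or over the 12 of the standard model. The methods speak of 3 biological replicates, and whether a number marks an isolation is not stated, so p-values measure the spread between these pairs. In the fit over 12 libraries that spread is pooled over the 72 h and 24 h pairs, which assumes that it is the same at both times. The pairing was kept after checking that same-numbered libraries correlated at 0.602, 0.480 and 0.478, and other library pairs across the groups at -0.521 to 0.193. Because group means were removed first, the values of the other pairs are not independent of those of same-numbered libraries. Differences of effects between times and between models were tested as interaction terms over 12 libraries each. The fitting was tested on simulated data of even spread, by the recovery of planted differences. That does not test how many of the calls made here are false.

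The comparison and its 43 gene lists were chosen with earlier results of these data known. Genes were named when they passed a test, were among the 15 largest differences in either direction with an unadjusted p under 0.05 and 1 direction in all pairs, among the 10 largest calls of the shared fit in either direction, listed by the study, among up to 5 largest in a list, a defining or abundant member of it, or among the 5 of smallest p in a difference test. Others are marked as chosen after their values were seen. Promoters are from RefSeq, and 86 of the 118 called genes have one in that table. Alternatives covered the pseudocount, filter, scaling, trend, block, fragments in place of FPKM, the libraries fitted, the limit and each replicate left out. Some genes are not reported here.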

Additional observations from a re-analysis of the deposited data

How the results depend on the processing

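The count of calls depends strongly on how the spread is estimated. In the paired comparison of 6 libraries, which called 1 gene, limma called 0 with no filter on low genes, 0 without the intensity trend and 0 without the replicate block (1719, 1355 and 800 genes then had an unadjusted p under 0.05), and 0 to 1 with a replicate left out. Sharing the spread gave 118 calls over 12 libraries and 184 over 24, and an adjusted p under 0.5, the other limit in the methods, gave 1827. In the shared fit, the 118 became 19 with no filter, where 27187 genes were tested, 29 without the trend, 0 without the replicate block (1011 at an unadjusted p under 0.05), 275 with voom on recovered fragments, 5064 at an adjusted p under 0.5, and 0 to 419 with a replicate left out. Of the 118, 17 were among the 19, 28 among the 29 and 110 among the 275. Other pseudocounts, a higher filter and both scalings left 106 to 146 calls there and 1 in the pairs. Of the 118, 100 remained under median-ratio scaling, 106 under quantile normalization, 116 at a pseudocount of 1 and 104 at 0.1. Genes described as called that were lost under either scaling include Aldh1a3, Cryab, Ddr1, Fmod, Fn1, Notch3, Pcsk6, Ramp1, Rasa4 and Tbxa2r, and under either pseudocount 6030408B16Rik, Aass, Cd38, Clec4n, Cryab, Fcgr2b, Mgl2, Pf4 and Tnfsf8. The cause of these shifts was not tested, beyond the larger number of genes under no filter and the fewer libraries with a replicate left out. Of the 201 genes taken by the naming rule, all with the same direction in every pair, Col1a1 alone reversed, to -0.14 over 6 libraries and -0.054 over 12 under quantile normalization. Genes such as Acta2 and Mki67 are outside the 201. Without replicate 1 the contractile and myCAF medians turned from -0.35 to 0.325 and from -0.30 to 0.272, and Acta2, Cnn1 and Myh11 turned the same way over pairs 2 and 3. Both difference tests had 0 calls in every alternative, the smallest adjusted p being 0.0544, for inverse minus standard co-culture without replicate 2. Depth limits the short noncoding genes named above, which rest on few fragments.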

Other observations

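Several called genes belong to none of the gene lists and have not been described above. Steap1, a protein of the plasma membrane, had the second smallest p of all and rose from 13.5, 5.61 and 3.81 to 41.2, 19.6 and 15.6 FPKM, without overlap of the groups (log2 1.73 ± 0.13, adjusted p = 0.00781 from limma). Its relative Steap2 rose by 1.03 ± 0.12. Apln, the peptide ligand of the apelin receptor, measured 31.1, 87.4 and 51.4 FPKM in co-culture and 2.57, 22.02 and 16.8 in control, and Ptprn, a protein of secretory granules, 175, 81.3 and 93.2 FPKM against 77.2, 32.0 and 32.7 in control. The groups of neither overlap. Aass, the first enzyme of lysine breakdown, rose from 0.820, 8.30 and 4.38 to 12.4, 18.3 and 21.2 FPKM, and Pycr1, the last enzyme of proline synthesis, from 20.9, 17.2 and 13.5 to 33.5, 30.2 and 21.9. Vdr, the vitamin D receptor, rose by 0.73 ± 0.10, with each co-culture at 50.3 FPKM or more and each control at 40.3 or less. Tnfsf8, a ligand of the TNF family, measured 2.58, 4.45 and 2.20 FPKM against 0.0941, 1.203 and 0.389 in control. These genes were chosen after their values were seen.

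Among the genes that fell, several encode receptors or their partners, a grouping made after the values were seen. Receptors were also called higher, among them Gpr35, Vdr, Thbd, Fcgr2b and Adcyap1r1 (log2 1.02 ± 0.15). Nrp2, a co-receptor of semaphorins and VEGF, measured 2.21, 7.16 and 7.30 FPKM in co-culture and 12.3, 15.9 and 16.5 in control, and Npr3, the clearance receptor of natriuretic peptides, 18.4, 15.6 and 41.4 FPKM against 59.8, 38.8 and 72.1 in control. Co-culture replicate 1 was the lowest library for Nrp2, and the ranges of Npr3 overlap while each pair was lower. Ramp1, a partner of the calcitonin receptor family, fell by 1.21 ± 0.20 on the log2 scale, and Tbxa2r, the thromboxane receptor, fell by 0.66 ± 0.10. Osr1, a transcription factor of mesenchymal progenitors, measured 25.1, 18.4 and 18.3 FPKM in co-culture and 39.0, 34.1 and 31.2 in control. The adipogenic regulator Zfp423 measured 6.65, 4.56 and 6.94 FPKM against 11.5, 11.5 and 12.4 in control. Neither of these overlaps between groups.

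Other called genes can be grouped by what they encode, again after the values were seen. Neuronal or neuroendocrine genes were called in both directions. Tubb3, a tubulin of neurons, measured 79.0, 64.4 and 71.6 FPKM in co-culture and 52.7, 43.6 and 48.4 in control, and Cpe, which trims peptide hormones, measured 86.8, 49.7 and 92.1 FPKM against 264, 101 and 157 in control. Scrn1, a secernin, measured 9.76, 8.41 and 15.6 FPKM against 23.4, 24.0 and 29.5 in control. Signalling genes included Deptor, an inhibitor of mTOR, at 6.29, 11.8 and 18.3 FPKM against 10.2, 28.5 and 32.8 in control, and Ddr1, a collagen receptor, at 143, 95.5 and 110.4 FPKM against 225, 134 and 149 in control. The proprotein convertase Pcsk6, which activates TGF-beta family ligands, measured 98.1, 44.0 and 71.8 FPKM against 198, 65.3 and 126 in control. Cd38, which consumes NAD, measured 2.36, 3.06 and 2.03 FPKM against 0.108, 0.998 and 0.382 in control, and the small heat shock protein Cryab 120.5, 93.2 and 127 FPKM against 238, 164 and 176 in control. B4galt1, a galactosyltransferase, measured 113, 122 and 128 FPKM against 84.6, 88.0 and 89.6 in control.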
